A study of Mus musculus with 2 samples.

Results

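The genes described here are 10 receptor genes that tune lymphocyte activation, Pdcd1, Ctla4, Icos, Tigit, Lag3, Tnfrsf18, Tnfrsf4, Tnfrsf9, Cd52 and Cd96, out of 23679 genes in the count tables. They were taken from a list by name, and all 10 had UMIs (unique molecular identifiers, each standing for 1 captured transcript) in both samples. Their levels were measured by BD Rhapsody single-cell RNA sequencing of group 3 innate lymphoid cells (ILC3s) that had been sorted from small-intestinal lamina propria. The mice were male C57BL/6 animals aged 18 months, and all samples form 1 group of n = 2 replicates. The labels give no genotype or treatment, and do not say whether the replicates came from separate animals or from pooled ones. Each SD therefore measures only the spread between these 2 samples. Each p-value rests on how far the differences among all cell groups varied between them, with the spread of each gene drawn towards that of other genes. Both kinds of spread may be technical.

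Checkpoint receptors are surface proteins that restrain lymphocytes after activation, and costimulatory receptors strengthen the signal of the antigen receptor. In T cells, PD-1 (Pdcd1), CTLA-4, TIGIT and LAG-3 are inhibitory, ICOS belongs to the CD28 family, and GITR (Tnfrsf18), OX40 (Tnfrsf4) and 4-1BB (Tnfrsf9) are costimulatory members of the TNF receptor family. ILC3s have no antigen receptor, yet they are known to carry several of these proteins, among them ICOS, GITR and, in some settings, PD-1. The small-intestinal ILC3 pool holds cells with the receptor NKp46 (Ncr1) and lymphoid tissue inducer cells, which express Ccr6 and in part Cd4.

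Cells were grouped by their own transcripts. T cells had at least 1 UMI of Cd3d, Cd3e or Cd3g, and were split into cells with Trac (the T cell receptor alpha constant gene) and Cd4, cells with Trac and no Cd4, cells with Trdc (the delta constant gene) and no Trac, and T cells with neither. CD3-zero cells had no UMI of the 3 Cd3 genes, and were split into cells with Ncr1, cells with Ccr6 or Cd4 and no Ncr1, and the rest. Replicate 1 gave 3337 cells and replicate 2 gave 3840 cells. The Trac with Cd4 group held 109 and 53 cells in replicates 1 and 2, Trac without Cd4 610 and 587, Trdc 121 and 111, and T cells with neither 309 and 366. The CD3-zero groups held 608 and 438 cells with Ncr1, 128 and 79 with Ccr6 or Cd4, and 1452 and 2206 in the rest. Of the cells with Ccr6 or Cd4, 79 and 35 had a Ccr6 UMI.

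The sort was labelled as ILC3s, but 1149 and 1117 of its cells had a Cd3 UMI. The CD3-zero groups are not free of T cell transcripts either: a Trac UMI was found in 9.05% and 4.79% of the Ncr1 cells, 5.47% and 16.5% of the Ccr6 or Cd4 cells and 6.89% and 10.4% of the rest. Median depth per group ran from 1579 to 2091 UMIs per cell. Levels are given as CPM, a gene's UMIs scaled to counts per 1e6 UMIs of the group in that replicate. The summed CPM of 4 fibroblast genes ran from 479 to 6909 over the groups of replicate 1 and from 26.0 to 247 in replicate 2. The summed CPM of 5 heat shock genes ran from 975 to 1202 in replicate 1 and from 1601 to 3508 in replicate 2. The part of the heat shock genes in the levels below was not tested. Without the 320 and 23 cells with at least 3 UMIs of markers of other cell types, all 19 calls given below held. These markers were fibroblast, B and plasma cell, myeloid and epithelial genes, with Igkc and Cst3 not counted. The rest group included 38 and 5 cells with at least 10 fibroblast UMIs and no Ptprc, which serve as cells that should lack these receptors. The libraries shared 10 cell barcodes.

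Averaged over groups, Ctla4, Cd52, Icos, Tigit and Tnfrsf4 were higher in T cells than in CD3-zero cells. For Icos this did not hold in every T group, and for Tigit it was not resolved in Trdc cells, which had few UMIs. Tigit and Tnfrsf4 were highest in T cells with Cd4. Icos, Cd52, Ctla4, Tigit, Tnfrsf18, Tnfrsf9 and Cd96 had UMIs in every group of both replicates. Pdcd1, Tnfrsf18, Tnfrsf9 and Cd96 did not pass the test between T cells and CD3-zero cells. Lag3 gave 81 of its 89 UMIs in CD3-zero cells. The plot of levels by cell group shows all 10 genes in both replicates.

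**Figure D1:**
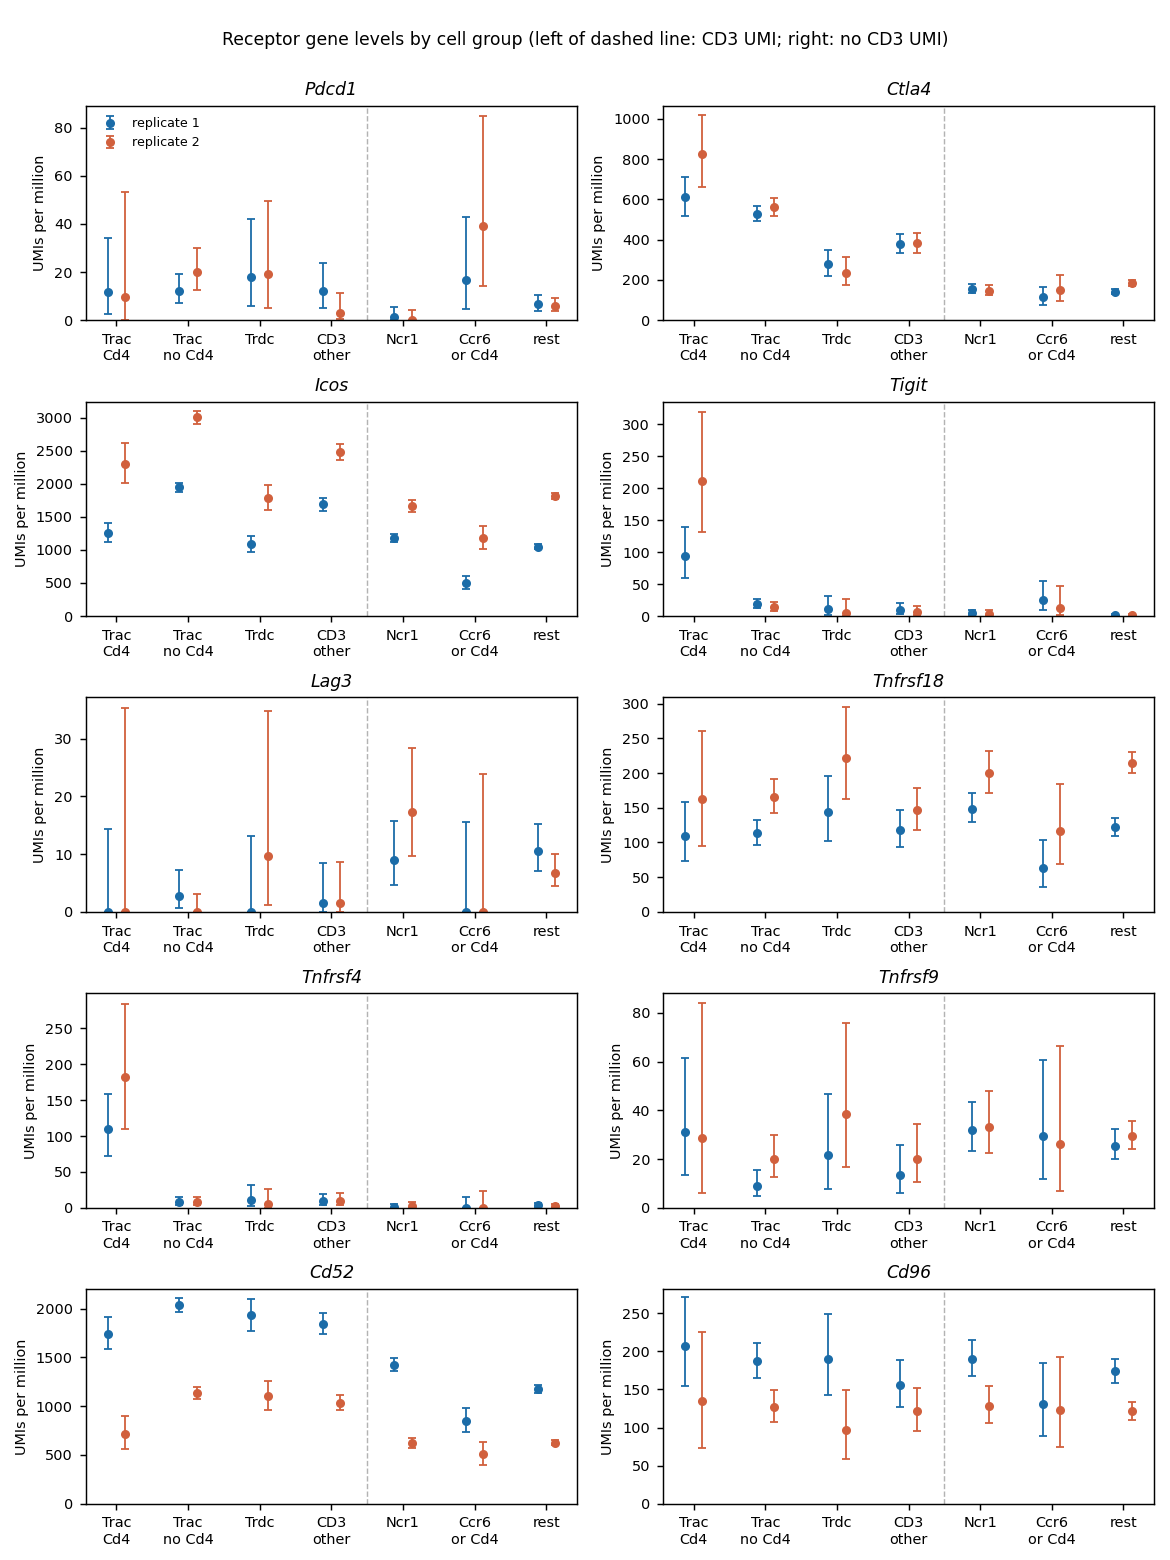
Level of each receptor gene (y axis, CPM, linear) in the 7 cell groups (x axis), with 1 point per replicate and exact Poisson 95% intervals, which cover counting error only. Tnfrsf4 stood at 109 and 182 CPM in Trac cells with Cd4 and at 10.8 CPM or less in the 5 other groups with UMIs, with 0 UMIs in Ccr6 or Cd4 cells, and Cd52 was lower and Icos higher in replicate 2 in all 7 groups.

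Among the inhibitory receptors, Ctla4 encodes the CD28 relative that competes for CD80 and CD86. The gene lies at chr1:60887000-60915832 on the plus strand (GRCm38, GENCODE M21), 62094 bases before Icos. Its level in replicates 1 and 2 was 610 and 824 CPM in Trac cells with Cd4, 528 and 561 in Trac cells without Cd4, 378 and 382 in T cells with neither Trac nor Trdc, and 280 and 236 in Trdc cells. In the CD3-zero groups it was 156 and 147 CPM in Ncr1 cells, 113 and 149 in Ccr6 or Cd4 cells and 142 and 183 in the rest. All 8 T cell values lay above all 6 CD3-zero values, and the 4 T groups kept the same order without overlap, while the ranges of the CD3-zero groups overlapped. Fibroblast-marked cells had 37.3 CPM (6 UMIs) in replicate 1 and 0 UMIs in replicate 2.

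Tigit encodes an inhibitory receptor that shares its ligand CD155 with CD226 and CD96, and lies at chr16:43648867-43664146 on the minus strand. It reached 93.8 and 211 CPM in Trac cells with Cd4 (24 and 22 UMIs). The next levels were 25.2 and 13.0 CPM in CD3-zero Ccr6 or Cd4 cells, from 6 and 2 UMIs, and 18.2 and 13.8 in Trac cells without Cd4. Trdc cells had 10.8 and 4.82 CPM, T cells with neither gene 9.05 and 6.22, Ncr1 cells 4.48 and 3.45, and the rest 1.46 and 1.91. Trac cells with Cd4 stood apart from all other groups in both replicates.

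Pdcd1, which encodes PD-1, lies at chr1:94038305-94052553 on the minus strand and gave only 57 and 58 UMIs in replicates 1 and 2. Its level was 16.8 and 39.0 CPM in CD3-zero Ccr6 or Cd4 cells, from 4 and 6 UMIs in 4 and 5 cells. Trdc cells had 17.9 and 19.3 CPM, Trac cells without Cd4 11.9 and 19.8, Trac cells with Cd4 11.7 and 9.59, T cells with neither gene 12.1 and 3.11, and the rest 6.57 and 5.99. Ncr1 cells had 2 UMIs in replicate 1 and 0 in replicate 2, or 1.50 and 0 CPM, the lowest in each replicate. The intervals of the small groups were wide, and the order of the other groups was not resolved.

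Lag3, whose product binds MHC class II, lies at chr6:124904361-124911705 on the minus strand. It gave 46 and 43 UMIs, of which 41 and 40 were in CD3-zero cells. The level was 8.97 and 17.2 CPM in Ncr1 cells and 10.6 and 6.81 in the rest. Ccr6 or Cd4 cells and Trac cells with Cd4 had 0 UMIs in both replicates, which allows up to 12.6 and 19.5 CPM in the first and 11.7 and 28.8 CPM in the second. Over all cells, CD3-zero cells had 8.99 CPM and T cells 1.69 CPM (8 UMIs), a ratio of 5.32 with a counting interval of 2.58 to 12.7. The direction held in both replicates, at 9.50 against 1.91 CPM and 8.52 against 1.42 CPM. In replicate 1 the fibroblast-marked cells had 12.4 CPM from 2 UMIs, no lower than the CD3-zero groups. Lag3 did not pass the filter on low counts and is not among the receptors tested below. In a fit without that filter it passed in 0 of the 6 comparisons, and the lowest adjusted p was 0.124, for Ncr1 cells against Ccr6 or Cd4 cells, the 1 comparison with an unadjusted p under 0.05 (0.00422, edgeR).

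Cd96 encodes a further CD155 receptor, at chr16:46035657-46120251 on the minus strand. Its level lay between 130 and 207 CPM in the 7 groups of replicate 1 and between 96.4 and 134 CPM in those of replicate 2, and the ranges of all neighbouring groups overlapped. The gene was lower in replicate 2 in all 7 groups.

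Of the costimulatory receptors, Tnfrsf4 encodes OX40 and lies at chr4:156013843-156016612 on the plus strand, 9551 bases before Tnfrsf18. It was at 109 and 182 CPM (28 and 19 UMIs) in Trac cells with Cd4. Trac cells without Cd4 had 8.42 and 7.77 CPM, Trdc cells 10.8 and 4.82, and T cells with neither gene 9.05 and 9.32. CD3-zero cells had 1.50 and 2.30 CPM with Ncr1, 3.65 and 2.45 in the rest, and 0 UMIs of 391823 with Ccr6 or Cd4. Trac cells with Cd4 stood apart from every other group, and all 4 T groups were above the Ncr1 cells and the rest in each replicate. The Trdc cells had only 3 and 1 UMIs, so their place in this order was not resolved. The 0 UMIs of Ccr6 or Cd4 cells allow up to 12.6 and 19.5 CPM, so their order against the other 3 T groups was not resolved.

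Icos lies at chr1:60977927-61000320 on the plus strand. Its levels in replicates 1 and 2 were 1945 and 3007 CPM in Trac cells without Cd4, 1689 and 2475 in T cells with neither gene, 1255 and 2301 in Trac cells with Cd4, and 1082 and 1783 in Trdc cells. Ncr1 cells had 1178 and 1665 CPM, the rest 1049 and 1810, and Ccr6 or Cd4 cells 500 and 1176. Icos was higher in replicate 2 in all 7 groups, 1.57 times over all cells. Within each replicate Trac cells without Cd4 were highest and Ccr6 or Cd4 cells lowest, while Trdc cells overlapped the Ncr1 and rest groups. Fibroblast-marked cells had 205 CPM in replicate 1 (33 UMIs in 38 cells) and 543 in replicate 2 (7 UMIs in 5 cells), below every group of the same replicate.

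Tnfrsf18, the GITR gene, lies at chr4:156026164-156028895 on the plus strand, and its exons overlap those of the antisense gene Gm16008. Whether the counting used strand is not given in the sources used here, so reads of the pair may not be told apart. Its level was lowest in Ccr6 or Cd4 cells, at 63.1 and 117 CPM. The other groups lay between 109 and 149 CPM in replicate 1 and between 146 and 222 CPM in replicate 2, with overlapping ranges. The gene was higher in replicate 2 in all 7 groups, 1.58 times over all cells.

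Tnfrsf9, the 4-1BB gene, lies at chr4:150914562-150946102 on the plus strand. Ncr1 cells had 32.1 and 33.3 CPM, the rest 25.5 and 29.4, and Ccr6 or Cd4 cells 29.4 and 26.0. Trac cells with Cd4 had 31.3 and 28.8 CPM, Trdc cells 21.5 and 38.6, T cells with neither gene 13.6 and 20.2, and Trac cells without Cd4 9.12 and 19.8. Trac cells without Cd4 were lowest in each replicate, but in replicate 2 only at 19.8 against 20.2 CPM in T cells with neither gene. The order of these 2 groups was not resolved, nor was that of the other groups.

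Cd52 encodes a small glycosylphosphatidylinositol-anchored glycopeptide of lymphocytes. It lies at chr4:134082448-134095082 on the minus strand and overlaps exons of Crybg2 on the plus strand. In replicates 1 and 2 it stood at 2039 and 1139 CPM in Trac cells without Cd4, 1932 and 1104 in Trdc cells, 1847 and 1036 in T cells with neither gene and 1743 and 719 in Trac cells with Cd4. Ncr1 cells had 1427 and 618 CPM, the rest 1180 and 626, and Ccr6 or Cd4 cells 853 and 507. Every T group was above every CD3-zero group of the same replicate. Over all cells replicate 2 had 0.507 times the level of replicate 1, so values of Cd52 overlap between groups when the replicates are pooled.

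The 3 genes that were highest in Trac cells with Cd4, with no overlap with the next group, are shown with the RefSeq promoter window of the same build (GRCm38.p6), 250 bases before to 50 bases after the annotated start. Capitals mark matches on either strand to NF-kB (GGGNNNNNCC), AP-1 (TGANTCA) or NFAT (TGGAAA) letters. The windows are chr1:60908775-60909074 on the plus strand for Ctla4, within the GENCODE gene span, chr4:156013445-156013744 on the plus strand for Tnfrsf4, which ends before the GENCODE start, and chr16:43664135-43664434 on the minus strand for Tigit.
Ctla4: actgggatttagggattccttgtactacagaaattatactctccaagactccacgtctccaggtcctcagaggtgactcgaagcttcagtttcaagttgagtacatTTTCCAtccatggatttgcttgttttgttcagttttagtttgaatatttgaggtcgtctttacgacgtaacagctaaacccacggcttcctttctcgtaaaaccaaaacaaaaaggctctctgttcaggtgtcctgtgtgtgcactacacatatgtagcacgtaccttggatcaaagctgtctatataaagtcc
Tnfrsf4: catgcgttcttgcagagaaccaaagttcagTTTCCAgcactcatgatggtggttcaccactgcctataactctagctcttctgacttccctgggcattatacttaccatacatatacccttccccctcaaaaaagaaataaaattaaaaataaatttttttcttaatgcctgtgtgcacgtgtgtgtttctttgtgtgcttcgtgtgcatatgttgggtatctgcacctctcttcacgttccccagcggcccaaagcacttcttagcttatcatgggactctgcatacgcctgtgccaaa
Tigit: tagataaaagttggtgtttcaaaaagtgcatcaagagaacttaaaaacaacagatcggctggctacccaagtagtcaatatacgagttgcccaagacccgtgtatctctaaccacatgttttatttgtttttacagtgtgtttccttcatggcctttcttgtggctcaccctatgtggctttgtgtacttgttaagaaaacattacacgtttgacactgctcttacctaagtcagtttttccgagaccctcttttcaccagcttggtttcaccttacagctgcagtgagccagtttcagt

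Ctla4 had an NFAT match 144 bases before the start and Tnfrsf4 had 1 at 220 bases before it, while Tigit had no match to any of the 3 motifs. Of 32851 RefSeq promoter windows, 21.4% held the NFAT letters, 50.8% the NF-kB and 7.81% the AP-1 letters. The table had windows for 7 of the 10 receptors, and none was used for Icos, Lag3 or Cd52.

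The first comparison set the 3 T groups defined by Trac or Trdc against the 3 CD3-zero groups, to see where the receptors are found in the cells of the sort. Ctla4, Icos, Cd52, Tigit and Tnfrsf4 were higher in T cells, and none of the 9 receptors tested was lower. Lag3, not tested, was at 1.69 CPM over all T cells, those with neither Trac nor Trdc included, against 8.99 over all CD3-zero cells. By edgeR's quasi-likelihood test with Benjamini-Hochberg adjustment over 7891 genes, 5 of the 9 receptors tested were higher, where 7.78% of all genes tested were called higher and 10.2% lower. Ctla4 was 3.15 times higher (log2 1.66, SE 0.11, adjusted p 8.81e-13), Cd52 1.71 times (log2 0.77, SE 0.09, adjusted p 7.15e-08) and Icos 1.56 times (log2 0.64, SE 0.08, adjusted p 6.96e-07). Tigit was 4.90 times higher (log2 2.29, SE 0.49, adjusted p 0.000945). For Tnfrsf4 (adjusted p 0.000107) a CD3-zero group had 0 UMIs, so the ratio is given over all cells, T cells with neither Trac nor Trdc included, at 17.7 CPM in T cells against 2.55 CPM, or 6.95 times with a counting interval of 4.34 to 11.6. All 5 calls held the same direction in both replicates. They concern means over groups, not every T group. Tigit in Trdc cells (10.8 and 4.82 CPM) was not above CD3-zero Ccr6 or Cd4 cells (25.2 and 13.0). With 4 against 8 UMIs over both replicates, the order of these 2 groups was not resolved. Icos in Trdc cells overlapped Ncr1 cells and the rest. At equal depth Tnfrsf4 missed the threshold (adjusted p 0.0658), with a fitted log2 ratio of 3.87 (SE 1.48) against 4.51 (SE 0.80) before thinning. These fitted ratios depend on the group at 0 UMIs.

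Pdcd1 was at 12.6 and 14.2 CPM in all T cells of replicates 1 and 2 against 5.56 and 5.96 in CD3-zero cells, with a fitted log2 ratio of 1.44 (SE 0.53) that missed the threshold (adjusted p 0.0594). Tnfrsf18 (log2 0.15, interval -0.12 to 0.41), Cd96 (log2 0.16, interval -0.08 to 0.40) and Tnfrsf9 (log2 -0.32, interval -0.85 to 0.21) did not pass the test. The median log2 ratio was 0.77 over the 9 receptors, 0.71 without Tnfrsf4, and -0.04 over all genes tested. Of 5 cytotoxic genes tested, Gzmb, Ccl5, Gzma and Nkg7 were also higher in T cells. Of 7 ILC3 markers tested, 4 were lower, among them Kit, Il1r1 and Il23r, and 3 did not pass. In replicate 1 these 7 markers summed to 2873 to 2889 CPM in the 3 T groups and 3102 to 3788 in the CD3-zero groups. In replicate 2 the sums were 3010 to 3392 and 3390 to 3423 CPM, so T cells held the markers at a similar summed level. Col1a1, Jchain and Cst3, markers of fibroblasts, plasma cells and myeloid cells, and the heat shock genes Hspa1a and Hspa1b were lower in T cells as well.

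At equal depth, with each cell thinned to 1000 UMIs and 186 and 313 shallower cells left out, Ctla4 was detected in 41.3% and 36.5% of Trac cells with Cd4, 36.6% and 38.8% of Trac cells without Cd4 and 14.2% and 21.9% of Trdc cells. It was detected in 11.8% and 11.7% of Ncr1 cells, 9.24% and 9.46% of Ccr6 or Cd4 cells and 11.8% and 14.01% of the rest, beside 3 of 37 (8.11%) fibroblast-marked cells in replicate 1. Without thinning, the shares of replicate 1 were 61.5% and 58.5% in the Trac groups with and without Cd4 and 14.1% to 19.9% in CD3-zero groups, and the fibroblast share was 15.8% at a median of 4002.5 UMIs per cell. The Ctla4 share of CD3-zero cells in replicate 1 was thus close to that of cells which should lack the gene, while the levels were 113 to 156 CPM against 37.3 CPM. The Cd52 share in replicate 1 was 80.7% to 85.0% in T groups and 49.6% to 68.6% in CD3-zero groups, against 18.9% in fibroblast-marked cells.

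**Figure D2:**
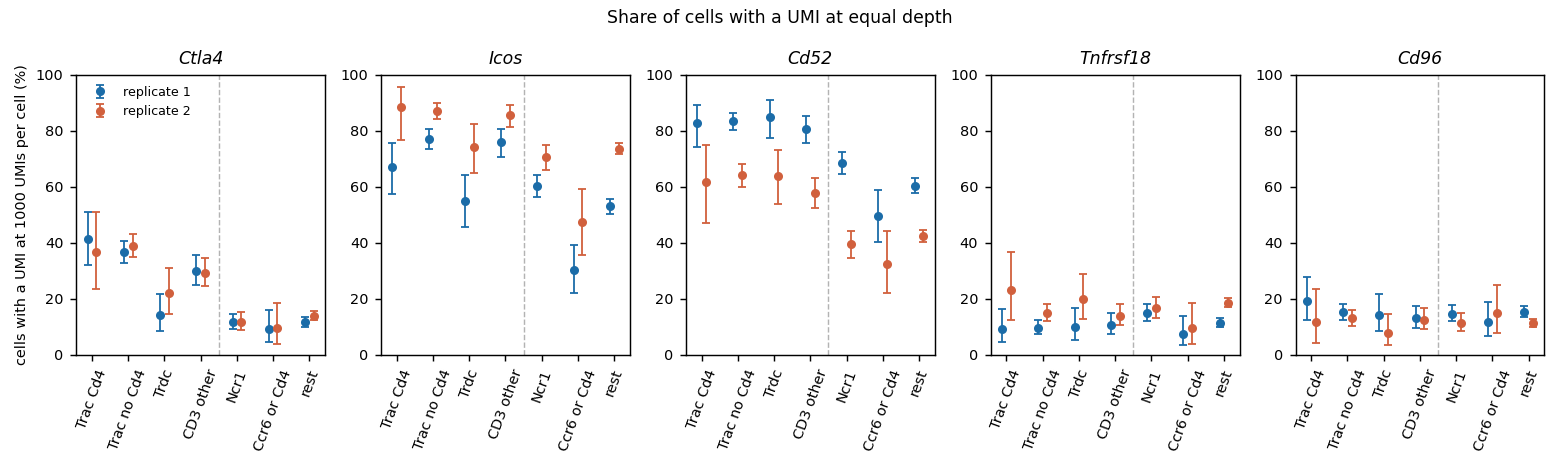
Share of cells with at least 1 UMI (y axis, percent) after thinning each cell to 1000 UMIs, for the 5 receptors with most UMIs in the 7 cell groups (x axis), with 1 point per replicate and exact 95% binomial intervals. Ctla4 was found in 36.5% to 41.3% of both Trac groups and in 9.24% to 14.01% of CD3-zero groups, while Cd96 and Tnfrsf18 showed no such step.

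Within the alpha beta T cells, Trac cells with Cd4 were compared with Trac cells without Cd4. Tnfrsf4 and Tigit were higher with Cd4 and Icos was lower, and Ctla4 did not pass the test. Of 9 receptors tested, 2 were higher and 1 lower, where 1.6% and 2.46% of all genes were called higher and lower. Tnfrsf4 was 15.3 times higher (log2 3.94, SE 0.45, adjusted p 7.86e-07) and Tigit 7.69 times (log2 2.94, SE 0.41, adjusted p 1.64e-05), with Tigit at log2 2.22 in replicate 1 alone and 3.53 in replicate 2 alone. Icos was lower by a log2 ratio of -0.64 (SE 0.14, adjusted p 0.00484). Its ratio was about as large when CD3-zero cells with a T cell receptor constant UMI, which share the fit, were left out (log2 -0.59, adjusted p 0.0747) and in a fit without the replicate block (log2 -0.64, adjusted p 0.781), but missed the threshold in both. Cd52 had a log2 ratio of -0.49 (SE 0.15, adjusted p 0.0593), and Ctla4 one of 0.24 (interval -0.06 to 0.55). The median was 0.06 over the 9 receptors and -0.08 over all genes tested. The cytotoxic genes Gzmb and Gzma were higher with Cd4, and the summed level of 5 cytotoxic genes was 2435 and 2799 CPM against 1475 and 906. Il1r1, an ILC3 marker, and Col1a1, Col1a2 and Cst3 were lower with Cd4. The part of these genes in the receptor levels was not tested.

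Foxp3, the regulatory T cell factor, had 0 UMIs in the 109 and 53 Trac cells with Cd4, which allows up to 11.7 and 28.8 CPM. Of 3 regulatory T cell markers tested, Il10 was higher with Cd4 and Il2ra lower. Il10, an anti-inflammatory cytokine gene, was at 39.1 and 86.3 CPM (10 and 9 UMIs) against 1.40 and 0.863 CPM (2 and 1 UMIs), adjusted p 0.00164. Il2ra was at 317 and 268 CPM against 513 and 508 (log2 -0.87, SE 0.19, adjusted p 0.00456).

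In Trac cells without Cd4, Tigit was concentrated in cells with at least 3 UMIs of Ccl5 and Gzma together, genes of cytotoxic T cells. These 58 and 31 cells had 110 and 155 CPM of Tigit, beside 7.82 and 6.36 CPM in the other 552 and 556 cells. Icos ran the other way, at 623 and 1483 CPM against 2096 and 3087. Pdcd1 had 0 UMIs in the Ccl5 and Gzma cells of both replicates. The upper Poisson limits there, 25.2 and 63.6 CPM, lay above the 13.3 and 20.9 CPM of the other cells, so no difference was resolved. Tnfrsf4 had 0 CPM in the Ccl5 and Gzma cells of replicate 1 and 51.7 in those of replicate 2 (3 UMIs), against 9.38 and 5.45 in the other cells. The 107 and 36 cells with a Cd8a UMI had 45.7 and 42.5 CPM of Tigit, against 11.4 and 11.9 in those without, and 1206 and 2580 CPM of Icos, against 2129 and 3035. These splits are descriptions of the cells, with no test.

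**Figure D3:**
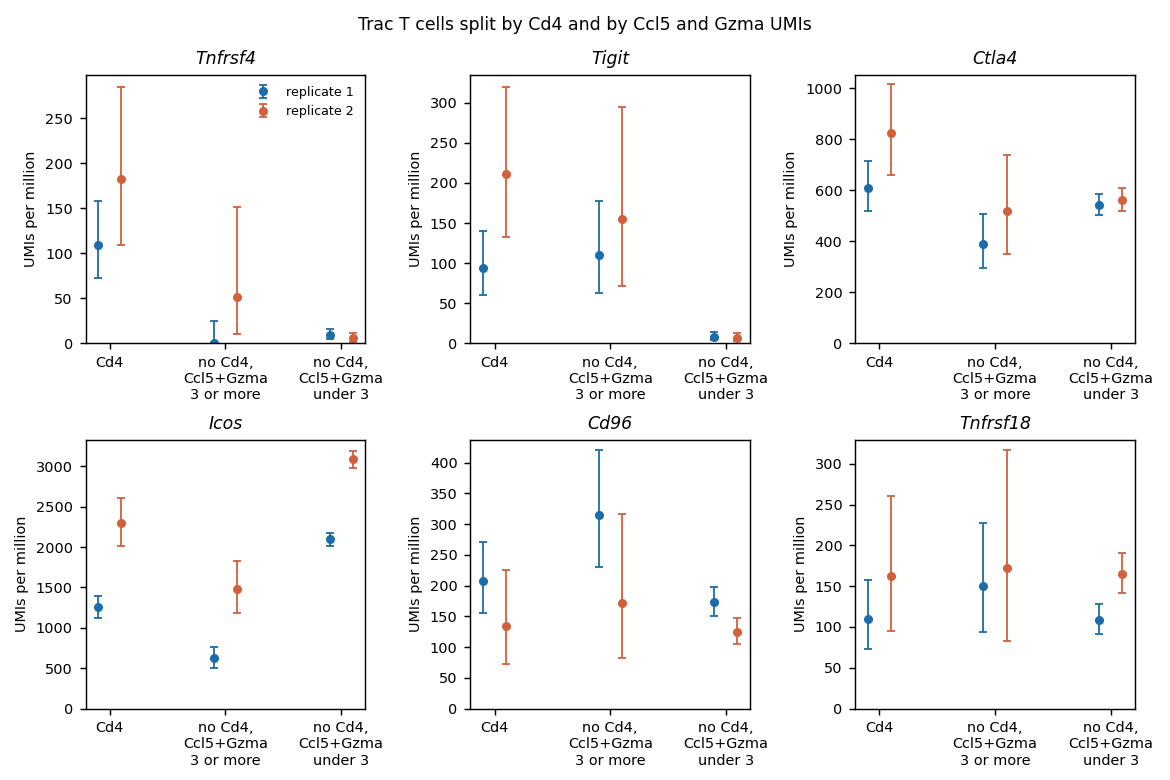
Level of 6 receptor genes (y axis, CPM, linear) in Trac T cells with Cd4, without Cd4 but with at least 3 UMIs of Ccl5 and Gzma, and without either (x axis), with 1 point per replicate and exact Poisson 95% intervals. Tigit was 93.8 to 211 CPM in the first 2 sets and 6.36 to 7.82 CPM in the third, while Tnfrsf4 was above 100 CPM only in cells with Cd4.

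Trdc cells were compared with the same Trac cells without Cd4, so this comparison shares its reference with the one above. Ctla4 and Icos were lower in Trdc cells and no receptor was higher: 2 of 9 tested, where 0.215% of all genes tested were called lower and 0.291% higher. Ctla4 had a log2 ratio of -1.08 (SE 0.17, adjusted p 0.000334) and Icos one of -0.82 (SE 0.14, adjusted p 0.000736), both by edgeR's quasi-likelihood test. Neither Tigit (log2 -0.98, interval -2.48 to 0.52) nor Tnfrsf9 (log2 1.03, interval 0.06 to 1.99, adjusted p 0.644) passed. The median was -0.09 over the receptors and -0.04 over all genes tested. Jchain, an immunoglobulin joining chain gene, was also higher in Trdc cells, with 0 UMIs there in replicate 2, and Col1a1, Col1a2 and Hspa1b were lower. The summed level of 5 B and plasma cell genes was 17252 CPM in Trdc cells and 2179 in Trac cells without Cd4 in replicate 1, and 24.1 and 411 CPM in replicate 2. Ctla4 and Icos were still called lower when cells with markers of other types were left out. Icos missed the threshold without CD3-zero cells with a T cell receptor constant UMI (log2 -0.79, adjusted p 0.0518). Without the replicate block both missed it, Ctla4 at log2 -1.10 (adjusted p 0.453) and Icos at log2 -0.82 (adjusted p 1).

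Among CD3-zero cells, Ncr1 cells were compared with Ccr6 or Cd4 cells, the markers of the NKp46 and lymphoid tissue inducer kinds of ILC3. Icos, Tnfrsf18 and Cd52 were higher in Ncr1 cells and Pdcd1 was lower. These are 3 and 1 of 9 receptors tested, where 2.26% and 2.5% of all genes tested were called higher and lower. Icos was 1.84 times higher (log2 0.88, SE 0.15, adjusted p 0.000188), Tnfrsf18 2.05 times (log2 1.03, SE 0.25, adjusted p 0.0118) and Cd52 1.49 times (log2 0.58, SE 0.16, adjusted p 0.0282). At equal depth Tnfrsf18 missed the threshold with a ratio about as large (log2 0.96, SE 0.34, adjusted p 0.105). Pdcd1 rested on 10 UMIs in Ccr6 or Cd4 cells against 2 in Ncr1 cells, a ratio of 28.2 with a counting interval of 6.01 to 265 (adjusted p 0.00473), and was not tested at equal depth. Tigit, at 25.2 and 13.0 CPM against 4.48 and 3.45, did not pass (log2 -2.26, SE 0.81, adjusted p 0.124). Tnfrsf4 was at or under the floor of 3 counts per library in both groups, and Ctla4, Tnfrsf9 and Cd96 did not pass the test.

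Markers of other cells moved with this comparison. All 4 fibroblast genes, with Jchain and Igkc, were higher in the Ncr1 cells, as was Nkg7, and Il1r1 was lower. The fibroblast sum was 3145 and 32.2 CPM in Ncr1 cells against 479 and 26.0 in Ccr6 or Cd4 cells, and the B and plasma cell sum was 5157 and 4467 CPM against 1900 and 32.5. Without cells carrying markers of other types, Icos, Tnfrsf18, Cd52 and Pdcd1 were called in the same directions. Tigit was then called lower as well (log2 -3.35, adjusted p 0.0262, edgeR). That filter did not count Igkc, and it removed 51 and 2 Ncr1 cells and 12 and 0 Ccr6 or Cd4 cells. The B and plasma cell sum left after it was not measured. A T cell receptor constant gene UMI, mostly of Trbc1 or Trbc2, was found in 92.1% and 84.7% of Ncr1 cells and 57.0% and 60.8% of Ccr6 or Cd4 cells. When CD3-zero cells with any such UMI were left out, Icos alone of the 8 receptors then tested was called (log2 1.85). The ratios of Tnfrsf18 (log2 1.62, SE 0.62, adjusted p 0.198) and Cd52 (log2 0.73, SE 0.25, adjusted p 0.149) were then no smaller but had wider errors, and Pdcd1 was not tested. Leaving out only those with Trac or Trdc, a choice made after seeing the data, kept the same 4 receptors called.

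Within the Ccr6 or Cd4 group, the 79 and 35 cells with Ccr6 had 26.3 and 28.0 CPM of Pdcd1, and the 49 and 44 cells with Cd4 alone had 0 and 48.4. Icos was 473 and 953 CPM with Ccr6 and 549 and 1368 with Cd4 alone, and Ctla4 112 and 84.1 against 117 and 206. Trac was 32.8 and 14.02 CPM with Ccr6 and 46.7 and 375 with Cd4 alone, so its level was highest of the 4 sets in the Cd4 cells of replicate 2.

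Between Ncr1 cells and the rest of the CD3-zero cells, 0 of 9 receptors were called by edgeR's quasi-likelihood test and 0 by DESeq2, where edgeR called 1.18% of all genes tested. Pdcd1 was the 1 receptor with an unadjusted p under 0.05 in edgeR (log2 -2.64, SE 0.87, adjusted p 0.215). Intervals were narrow for Icos (log2 -0.25 to 0.26), Cd52 (log2 -0.15 to 0.38), Cd96 (log2 -0.18 to 0.36) and Tnfrsf18 (log2 -0.21 to 0.32).

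Trac cells with Cd4 were last compared with the CD3-zero Ccr6 or Cd4 cells, the 2 groups defined in part by Cd4. Ctla4, Tnfrsf4, Icos, Tigit and Cd52 were higher in the T cells, 5 of 9 receptors tested, where 4.4% of all genes tested were called higher and 5.87% lower. Tnfrsf4 had 47 UMIs of 360133 against 0 of 391823, at least 8.68 and 9.35 times higher in replicates 1 and 2 at a floor of 3 counts per library (adjusted p 6.90e-06). Ctla4 was 5.27 times higher (log2 2.40, SE 0.22, adjusted p 7.90e-09), Tigit 6.44 times (log2 2.69, SE 0.56, adjusted p 0.00120), Icos 2.11 times (log2 1.08, SE 0.16, adjusted p 1.16e-05) and Cd52 1.76 times (log2 0.82, SE 0.17, adjusted p 0.00128). The ratio of Tigit was log2 1.84 in replicate 1 alone and 3.70 in replicate 2 alone. Pdcd1 was 11.7 and 9.59 CPM against 16.8 and 39.0 and did not pass (log2 -1.21, interval -3.07 to 0.65). Of the marker genes, Col3a1, Col1a1, Col1a2, Gzmb, Gzma, Ccl5 and Nkg7 were also higher in these T cells, and Cst3, Hspa1a, Hspa1b, Kit and Il1r1 were lower. The comparisons share cell groups, so their results are not independent of each other. Of the 19 calls over the 6 comparisons, 11 missed the threshold in a fit without the replicate block.

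**Figure D4:**
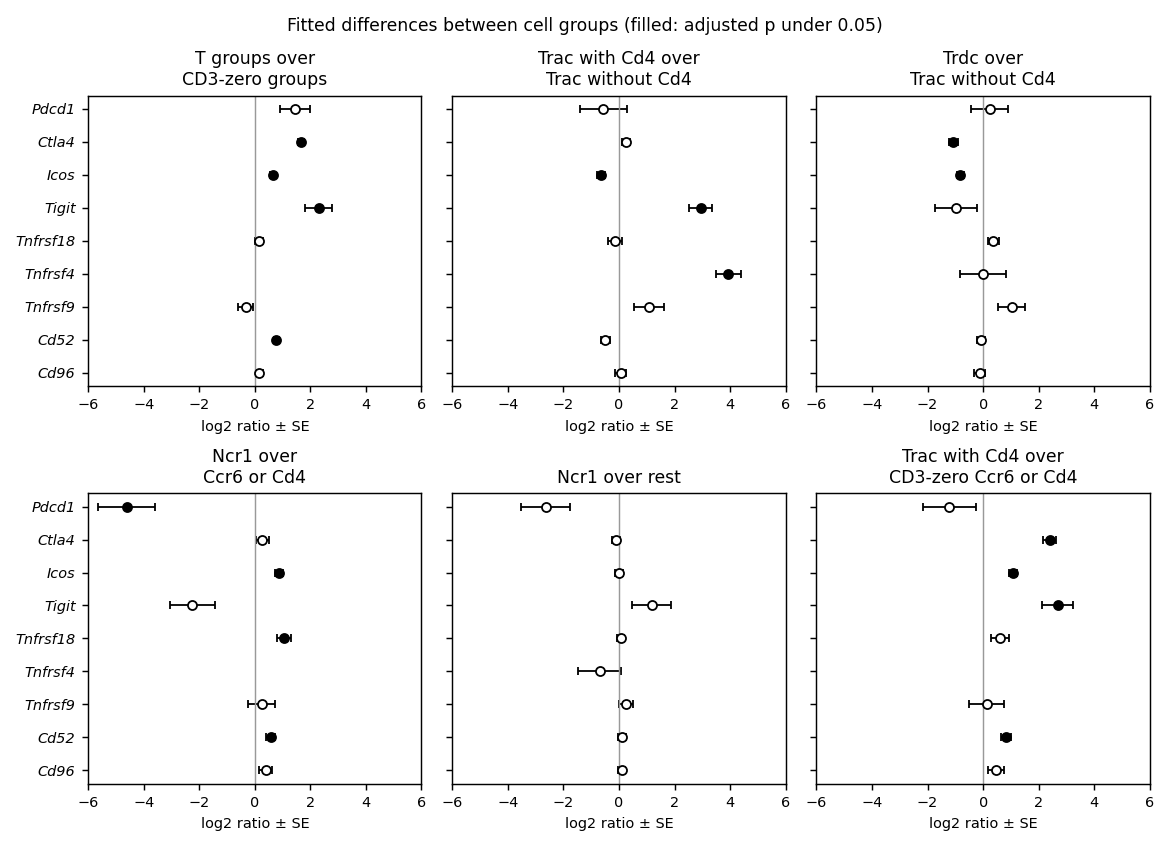
Fitted log2 ratio (x axis) ± SE of the 9 receptors that passed the filter on low counts (y axis) in the 6 comparisons, with filled points for an adjusted p under 0.05. Tnfrsf4 is left out where a CD3-zero group had 0 UMIs. Ctla4 stood at 1.66 in T cells over CD3-zero cells, and all points lay open in Ncr1 cells over the rest.

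Receptors were also found together in cells. At 1000 UMIs per cell, at least 2 of Pdcd1, Ctla4, Tigit, Lag3 and Cd96 were detected in 13.8% and 11.5% of Trac cells with Cd4 and 6.72% and 6.64% of Trac cells without Cd4 (34.9% and 26.4%, and 24.1% and 14.3%, before thinning). The share was 3.33% and 0.952% in Trdc cells and 0.840% to 2.70% in CD3-zero groups. Among Trac cells with Cd4, 19 and 12 had Tnfrsf4, 19 and 13 had Tigit, and 6 and 3 had both. Whether receptors occurred together more often than their separate shares would give was not tested. At least 2 of Icos, Tnfrsf18, Tnfrsf4 and Tnfrsf9 were detected in 11.0% and 26.9% of Trac cells with Cd4 and in 10.5% and 13.1% of Ncr1 cells, so this share did not part T cells from Ncr1 cells.

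Of 20 other receptors of this kind, 13 were tested between T and CD3-zero cells, where 4 were higher, 2 lower and 7 did not pass, beside 7.78% and 10.2% of all genes tested called higher and lower. Cd28, the main costimulatory receptor, was 9.98 times higher in T cells (log2 3.32, SE 0.26, adjusted p 6.62e-11). Vsir, which encodes the inhibitory receptor VISTA, was 3.83 times higher (log2 1.94, SE 0.21, adjusted p 3.41e-08). Cd244a, the 2B4 receptor of natural killer cells, was lower (log2 -2.74, SE 0.39, adjusted p 3.64e-06), and Tnfrsf1b, a TNF receptor, was 1.40 times higher (adjusted p 0.000740). With Cd4 among Trac cells, Cd2, Cd28 and Cd6 were higher and Tnfrsf25 lower, and in Trdc cells Cd28 and Cd2 were lower. Ncr1 cells had more Cd226, at 113 and 83.8 CPM against 25.2 and 39.0 in Ccr6 or Cd4 cells (adjusted p 0.00496), and more Cd160.

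Of 18 ligand genes of receptors of this kind, not all of them ligands of the 10 receptors described here, 9 were tested. Between T and CD3-zero cells 3 were higher, Cd40lg, Lgals3 and Cd48, and 2 were lower, Tnfsf4 and Icosl, beside the same 7.78% and 10.2% of all genes. Tnfsf4 encodes the ligand of OX40. It had 46.2 and 84.4 CPM in Ccr6 or Cd4 cells (11 and 13 UMIs), 5.23 and 4.59 in Ncr1 cells and 5.11 and 3.81 in the rest, and 0 UMIs in all 4 T groups of both replicates. A count of 0 allows up to 0.633 CPM over all T cells together, and up to 11.7 and 28.8 CPM in Trac cells with Cd4 of replicates 1 and 2. The receptor Tnfrsf4 and its ligand gene were thus highest in different groups that both hold Cd4 transcripts. Tnfsf4 was lower in Ncr1 cells than in Ccr6 or Cd4 cells (log2 -3.58, SE 0.64, adjusted p 0.000742), as was Siglecg. Icosl, the ligand of ICOS, named here after its values were seen, was lower in T cells (log2 -1.11, SE 0.32, adjusted p 0.0124).

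Of 28 signalling genes downstream of such receptors, all passed the filter, and 8 were higher and 6 lower in T cells than in CD3-zero cells, again beside 7.78% and 10.2% of all genes. Lat, an adaptor of the T cell receptor, was 5.40 times higher (log2 2.43, SE 0.12, adjusted p 1.88e-15), and Sh2d2a, an adaptor of Lck, 3.05 times. Nr4a1, an activation-induced nuclear receptor, was lower (log2 -1.14, SE 0.12, adjusted p 1.07e-08). With Cd4 among Trac cells, Maf and Sh2d1a were higher and Pik3r1 lower. In Ncr1 cells against Ccr6 or Cd4 cells, 3 were higher and 2 lower, beside 2.26% and 2.5% of all genes, led by Pik3r1 (log2 1.27, SE 0.19, adjusted p 3.93e-05).

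The genes most like each receptor over the 14 sums were ranked by Pearson's r of log2(CPM + 10), centred within replicate, among 6391 genes. For Tnfrsf4 they included Cpd (r = 0.98) and Lpxn (0.95), and for Tigit they were Cd53, Riok1 and Cnst (0.94 each). Stk4 (0.96), Rpl24 and Arpc2 (0.95 each) came closest to Ctla4, and Txnip, Tmsb4x (0.95 each) and Cox7c (0.93) to Icos. Between receptors, Tnfrsf4 and Tigit had r = 0.89, and Icos and Cd52 r = 0.82. The 14 sums share 2 libraries and differ in depth, so these values are descriptions without a test.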

How the data were processed

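The authors deposited UMI counts per cell and gene, produced by version 1.8 of BD's WTA Rhapsody pipeline on GRCm38 with GENCODE annotation, per the file headers. They are unnormalised. The submitters' processing notes also name HISAT2 2.0.5, Bowtie2, mm10 and GRCm38.p6. A sample tag call per cell was deposited beside each count table: tag 6 is replicate 1 and tag 12 replicate 2, each in its own library, with 3427 and 3954 cells. Cells of other tags, undetermined cells and tag multiplets (572 and 987) were not used, and no doublet caller was run. A gene in 1 table alone was read as 0 in the other.

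Cells were kept from 300 genes up, if no more than 25% of their UMIs were mitochondrial, with 6939790 and 6810214 UMIs and medians of 1880 and 1674 UMIs per cell. Counts were summed per replicate and cell group (14 sums) and tested with edgeR 4.0.16 (R 4.3.3), TMM scaling, filterByExpr and glmQLFTest, with replicate as a block, since groups of a replicate come from the same library: Icos, Tnfrsf18, Cd52 and Cd96 moved the same way between replicates in all 7 groups. P-values were adjusted by Benjamini-Hochberg at 0.05 over 7891 genes that define no group. The fit had 6 residual degrees of freedom. The spread of each gene was moderated across genes, with a median of 22.48 prior degrees of freedom. Levels of CPM carry exact Poisson and shares exact Clopper-Pearson intervals at 95%, for counting error only, and a count of 0 allows up to 3 counts. Intervals of log2 ratios are normal. The steps were tested on simulated data, drawn with the same spread for all genes and no difference between replicates. For Ncr1 over Ccr6 or Cd4 cells, 34% of 2-fold and 97% of 4-fold changes were recovered, and 2.24% of calls were false. The changed genes were picked among those with more counts.

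The members, lists and tests were chosen with earlier results of these data known. All 10 members are named in each comparison, and of the other lists at most 4 genes with the smallest p. Alternatives were DESeq2 1.42.0 and its size factors, no filter, no block, thinning, other cell filters and cell sets, and leaving out each replicate. A few genes that the rules would name are not reported here.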

Additional observations from a re-analysis of the deposited data

How the results depend on the processing

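Of 19 receptor calls, 7 held in all 12 alternatives with a test: Ctla4 and Tigit in T cells over CD3-zero cells, Tnfrsf4 and Tigit in Trac cells with Cd4 over those without, and Ctla4, Tigit and Tnfrsf4 in Trac cells with Cd4 over CD3-zero Ccr6 or Cd4 cells. None of the 19 reversed under an alternative with a test, though Pdcd1 was tested in only 10. Without the replicate block, which leaves the difference between libraries in the error, the number of receptors called fell from 5 to 3 for T cells over CD3-zero cells, from 3 to 2 for Trac with Cd4 over without, from 2 to 0 for Trdc over Trac without Cd4, from 4 to 0 for Ncr1 over Ccr6 or Cd4, and from 5 to 3 for Trac with Cd4 over CD3-zero Ccr6 or Cd4 cells. Genes called among all tested then numbered 666, 0, 21 and 288, against 1416, 40, 375 and 810, and 38 against 320 for Trac with Cd4 over without. With cells thinned to equal depth, 2 of 8 receptors tested were called in Ncr1 over Ccr6 or Cd4 cells, where Tnfrsf18 lost its call and Pdcd1 was not tested. Thinning tested 5797 genes and called 275 there, 940 in T over CD3-zero cells, 209 in Trac with Cd4 over without, and 478 in Trac with Cd4 over Ccr6 or Cd4 cells. Without CD3-zero cells with a T cell receptor constant UMI, 1 receptor was called in Ncr1 over Ccr6 or Cd4 cells and 1 in Trdc over Trac without Cd4, where Icos had an adjusted p of 0.0518; this setting tested 5497 genes and called 151 in Ncr1 over Ccr6 or Cd4 cells. With no filter on low counts, 69 genes were called in Trdc over Trac without Cd4. Beyond the block, the cause was not tested. The 0 receptors of Ncr1 over rest stayed at 0 in all settings, while the genes called there ran from 0 without the block to 193 without the filter, with 5 in DESeq2, 24 without cells with markers of other types and 40 after thinning, against 93. Cd52 in Trac cells with Cd4, not called, was called lower in 4 settings (adjusted p 0.0161 without cells with markers of other types), and Pdcd1 was called higher in T cells without the filter (adjusted p 0.0494). Leaving out a replicate leaves no residual degrees of freedom, so no number of calls could be had, and the log2 ratio of each called receptor kept its sign. Sizes did change. Over all receptor results, 15 moved by at least the SD of the 2 single-replicate ratios without replicate 1, and 39 did not. Without replicate 2, 9 moved and 45 did not. Depth limits Pdcd1, Tigit, Tnfrsf4, Tnfrsf9 and Lag3, with 89 to 344 UMIs each. Large differences of Tigit and Tnfrsf4 were called in the groups of 53 to 128 cells, but smaller ones may often have been missed there.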
